A study of Mus musculus with 10 samples.

Results

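The genes described here are the mouse chitinases and chitinase-like genes: Chia1, Chit1, Chil1, Chil3, Chil4, Chid1 and Ctbs. They were taken by symbol from the 47333 genes of the deposited count table, and all 7 were found. The family was chosen by the CPM values and fold change of Chia1, which had differed between the genotypes in these same data. Its difference, and those of its relatives in the same comparison, are therefore given as a description and not as a test. Of the 7 genes, 5 passed the filter on low counts and were among the 18024 genes tested, while Chil4 and Chit1 did not.

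The data are bulk RNA sequencing of 1 lung lobe, the right middle, from each of 10 untreated C57BL/6J mice at 12 weeks of age. For Bpifb1, the gene of an airway secretory protein, 5 were labelled KO (4 females, 1 male) and 5 WT (3 females, 2 males), and cages mixed the genotypes. How the KO allele was made is not given in the sources used here. The lobe is a mixture of cell types, so fewer cells of a type and less RNA per cell cannot be told apart in any value below.

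Chitinases are enzymes of glycoside hydrolase family 18 that cut chitin, the polymer in the walls of fungi and the shells of insects and mites. Mammals make no chitin but carry active enzymes, Chia1 and Chit1, and relatives that keep the fold and the sugar-binding groove without the catalytic residue, called chitinase-like proteins or chi-lectins. In the mouse lung Chia1 and Chil1 are known as products of alveolar type 2 cells, and Chil3 (Ym1) as an abundant product of alveolar macrophages. Several of these genes are known to rise in allergic, type 2 inflammation.

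The stretch around the active site separates the enzymes from the chi-lectins and also shows how alike Chil3 and Chil4 are. It was located by searching the translated longest reading frame of Chia1 and Chit1 for the family's catalytic motif and by alignment in the others. Capitals mark the codon at the place of the catalytic glutamate, and all 5 stretches lie within 1 coding exon (GENCODE M21 transcripts, GRCm38, each given 5′ to 3′ on the gene's own strand).
Chia1, chr3:106122439-106122480, plus strand, exon 5: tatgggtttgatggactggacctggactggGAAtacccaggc
Chit1, chr1:134145325-134145366, plus strand, exon 6: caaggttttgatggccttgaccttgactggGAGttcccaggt
Chil1, chr1:134185222-134185263, plus strand, exon 5: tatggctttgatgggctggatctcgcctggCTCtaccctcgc
Chil3, chr3:106160419-106160460, minus strand, exon 5: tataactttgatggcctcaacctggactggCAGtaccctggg
Chil4, chr3:106210524-106210565, minus strand, exon 5: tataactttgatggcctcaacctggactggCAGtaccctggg
Chia1 and Chit1 carried the glutamate codons GAA and GAG there, Chil1 carried CTC, and Chil3 and Chil4 both carried CAG. Chil3 and Chil4 did not differ at any of the 42 bases, while Chia1 differed from Chil3 at 10 of them. Over the aligned coding bases Chil3 and Chil4 were 95.3% identical, Chia1 and Chil3 76%, and Chia1 and its fellow enzyme gene Chit1 63.3%.

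This likeness bears on how 50-base reads could be assigned. Of the distinct 50-base words in Chil3 transcripts, 26.9% also occurred in Chil4 or in the pseudogene Gm6522. Of those in Chil4 transcripts, 11% occurred in Chil3 or Gm6522. Chia1, Chil1, Chit1 and Ctbs shared 0 such words with any other annotated gene, and Chid1 shared 10 of 11129, with Ndfip1. The values of Chil3 and Chil4 therefore depend on how shared reads were divided before deposit. Chia1 counts were also not whole in 8 of 10 mice, so some of its reads were also divided, with what other sequence was not tested.

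Between 21357452 and 28321361 estimated counts were assigned per mouse. Values are given as CPM, counts per 1000000 assigned counts after TMM scaling between mice. The floor for detection, 3 counts, equalled 0.104 to 0.143 CPM and covers counting error only. Bpifb1 itself (ENSMUSG00000027485, chromosome 2, 154190818 to 154220369) measured 0.217 to 1.26 CPM in KO and 28.1 to 79.6 CPM in WT mice, so the groups did not overlap. KO replicate 5, labelled female, had 1.78 CPM of Xist where the other females had 274 to 407 CPM, and 0 counts of 4 Y-linked genes, so the results on sex, and the fold change of Chia1, are given with and without this mouse. Nothing in the labels says that the mice came from separate litters, so errors measure the spread between these 10 animals.

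Levels between members were compared per length, as CPM per kb of the longest coding transcript. Chil1 stood highest, at 404 ± 33.7 in WT and 431 ± 34 in KO mice (SD, n = 5 each). Chil3 followed at 254 ± 30.7 and 216 ± 42.5, and Chia1 came next at 48.2 ± 3.2 and 27.9 ± 3.19. On this length each of these genes lay wholly above the next in all 10 mice: the lowest mouse for Chil1 had 347 and the highest for Chil3 had 288, and the lowest for Chil3 had 164 where the highest for Chia1 had 52. With the length of all exons joined, Chil1 (228 to 322 CPM per kb) and Chil3 (155 to 272) overlapped, so their order rested on the length used, while Chil3 and Chia1 (21.6 to 46) did not. Chid1 and Ctbs were lower again, at 8.32 ± 0.917 and 5.36 ± 0.537 in WT mice. Their order rested on the length in the same way, since by all exons joined their ranges overlapped (2.47 to 3.75 and 2.27 to 2.87 CPM per kb). Chil4, at 0.102 ± 0.0804 in WT mice, and Chit1, at 0.0236 ± 0.0171, were lowest. The floor is in CPM and not per kb. In CPM, Chil4 averaged 0.158 in WT and 0.276 in KO mice and exceeded 3 counts in 4 of 10 mice, while Chit1 did so in 0.

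**Figure D1:**
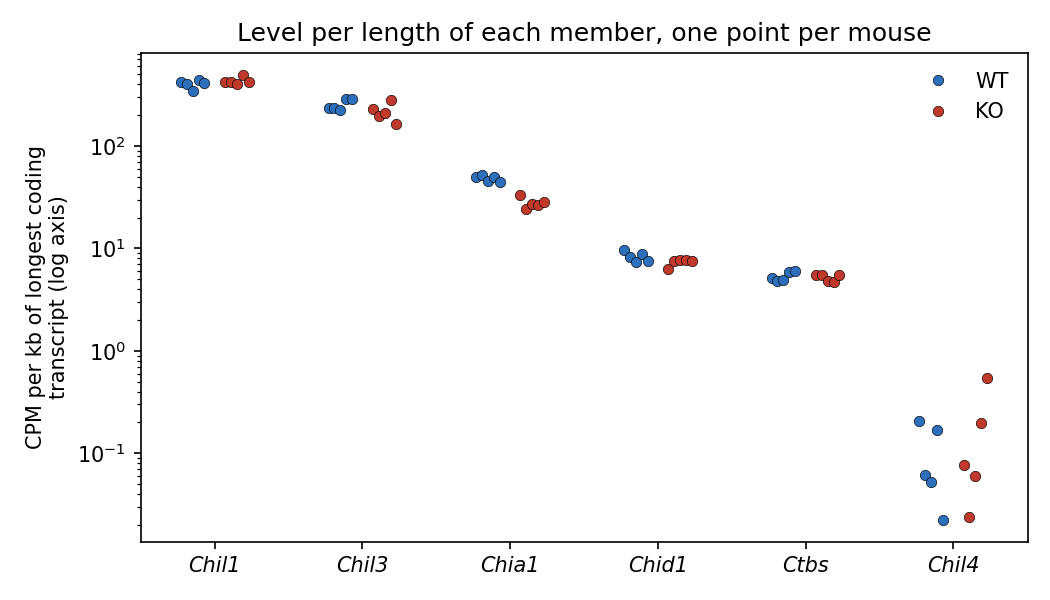
Level of each member as CPM per kb of its longest coding transcript (log axis), 1 point per mouse, WT in blue and KO in red. Chit1 is not drawn because several mice had 0 counts. On this length Chil1, Chil3 and Chia1 do not overlap one another, though Chil1 and Chil3 do by the length of all exons joined, and Chia1 is the member whose KO and WT points separate.

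Of the active enzymes, Chia1 encodes acidic mammalian chitinase (ENSMUSG00000062778, chromosome 3, 106113229 to 106132120, plus strand). It measured 83.65, 87.5, 76.85, 83.1 and 74.3 CPM in WT replicates 1 to 5. In KO replicates 1 to 5 it measured 55.4, 41.2, 45.4, 44.4 and 48.2 CPM. Every KO mouse was below every WT mouse, and the highest KO value, 55.4 CPM, came from the 1 KO male. The means were 81.1 ± 5.38 CPM in WT and 46.9 ± 5.36 CPM in KO mice (SD, n = 5 each), so that KO mice had 57.9% of the WT level. The log2 fold change was -0.76 (SE 0.07, 95% interval -0.91 to -0.62). It was -0.78 without KO replicate 5 and -0.84 in the mice labelled female, KO replicate 5 among them. Each value rests on 977 to 2152 counts per mouse.

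In the comparison of KO with WT by edgeR's quasi-likelihood test, 0.0222% of all genes tested were called (4 of 18024; 0.0166% lower and 0.00555% higher in KO), and 1 of the 5 members tested was called, Chia1, lower. DESeq2 called 1.92% and limma-voom 0.0111% of all genes, and by each the same 1 member. CPM ranges that did not overlap between the genotypes were seen for 1.88% of all genes tested and again for 1 member, Chia1. Since this comparison chose Chia1, nothing is read from these counts. The median log2 fold change over all genes tested was -0.003.

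Chit1 encodes the other active enzyme, chitotriosidase, a product of macrophages in people (ENSMUSG00000026450, chromosome 1, 134111242 to 134151540, plus strand). It had 0, 0, 2, 2 and 1 counts in KO and 1, 1, 0, 2 and 1 counts in WT replicates 1 to 5. No mouse exceeded the floor of 3 counts, so no level and no fold change can be given at this depth. Of the pair of true chitinases only Chia1 had a measurable level in these 10 lobes.

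**Figure D2:**
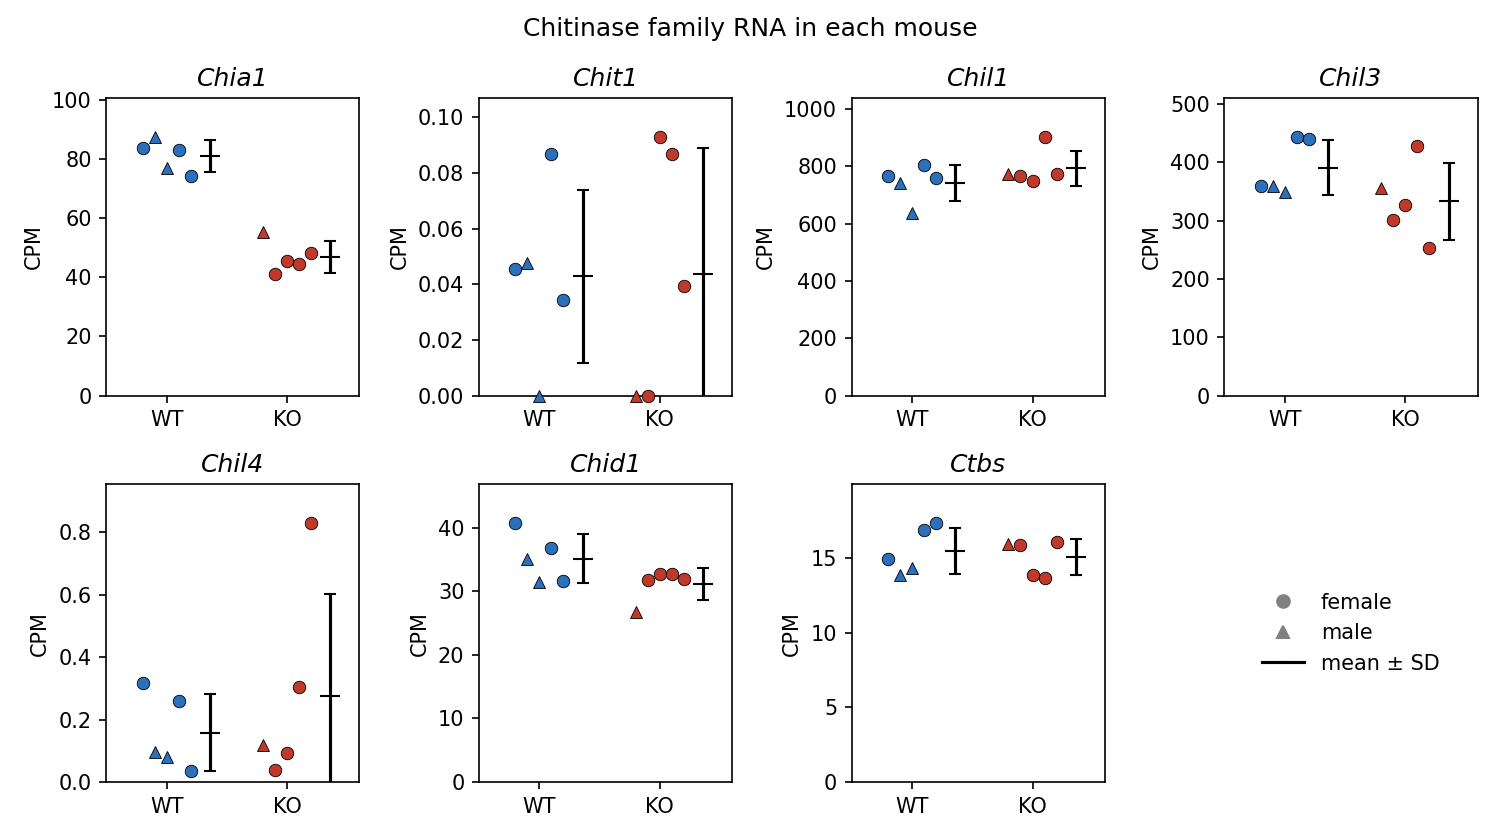
CPM of each member in every mouse (circles female, triangles male), WT in blue and KO in red, with the mean ± SD as a bar beside the points and each vertical axis starting at 0, which cuts off SD bars that would reach below it. In the Chia1 panel the KO mice sit between 41.2 and 55.4 CPM and the WT mice between 74.3 and 87.5 CPM; in every other panel the groups overlap.

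Among the chi-lectins, Chil1 encodes BRP-39, the mouse counterpart of human YKL-40, a secreted lectin used as a marker of tissue injury (ENSMUSG00000064246, chromosome 1, 134182176 to 134190181, plus strand). It measured 774, 767, 748, 903 and 772 CPM in KO replicates 1 to 5. In WT replicates 1 to 5 it measured 767, 742, 639, 804 and 759 CPM. The groups overlapped, with the highest value in KO replicate 4 and the lowest in WT replicate 3. The log2 fold change was 0.07 (SE 0.07, 95% interval -0.07 to 0.22), and the gene was not called.

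Chil3 encodes Ym1, a lectin that can form crystals in the airways (ENSMUSG00000040809, chromosome 3, 106147554 to 106167564, minus strand). Its values were 356, 300.5, 327, 428 and 252.6 CPM in KO replicates 1 to 5. In WT replicates 1 to 5 they were 359, 359.8, 349, 443.5 and 439.9 CPM. KO replicates 2, 3 and 5 were below all WT mice, while KO replicates 1 and 4 lay within the WT range. The log2 fold change was -0.24 (SE 0.14, 95% interval -0.54 to 0.06), not called. This was the most variable of the tested members between mice, with a coefficient of variation of 19.7% in KO and 12.1% in WT.

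Chil4 encodes Ym2, the near copy of Ym1 that is known to rise in allergic airways (ENSMUSG00000063779, chromosome 3, 106201490 to 106219507, minus strand). It had 3, 1, 2, 7 and 21 counts in KO replicates 1 to 5 and 7, 2, 2, 6 and 1 counts in WT replicates 1 to 5. Counts above the floor were present in 4 of 10 mice, and KO replicate 5 had the most. Per 1000 Chil3 counts this was 3.36 Chil4 counts in KO replicate 5 and 0.0785 to 0.886 in the other 9 mice. With 16.9% of Chil3's 50-base words also found in Chil4, whether these few counts came from Chil3 reads was not tested.

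The more distant relatives are Chid1 and Ctbs. Chid1 encodes stabilin-1 interacting chitinase-like protein, a lectin of the lysosomal and secretory route (ENSMUSG00000025512, chromosome 7, 141493136 to 141539857, minus strand). It measured 26.8, 31.75, 32.7, 32.6 and 31.9 CPM in KO replicates 1 to 5 and 40.7, 35, 31.4, 36.8 and 31.7 CPM in WT replicates 1 to 5. KO replicate 1 was the lowest mouse and WT replicate 1 the highest, and the groups overlapped between 31.4 and 32.7 CPM. Its log2 fold change of -0.21 (SE 0.07, 95% interval -0.36 to -0.06) had an interval below 0 but the gene was not called after adjustment over all genes. Of all genes tested 17% had an unadjusted p under 0.05 in this comparison (8.04% lower and 8.92% higher in KO), so such an interval was common.

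Ctbs encodes di-N-acetylchitobiase, a lysosomal enzyme that trims the chitobiose core left by the breakdown of glycoproteins (ENSMUSG00000028189, chromosome 3, 146449795 to 146465849, plus strand). It ranged from 13.7 to 16.1 CPM in KO and from 13.9 to 17.4 CPM in WT mice. The log2 fold change was -0.05 (SE 0.08, 95% interval -0.22 to 0.13), not called. The groups overlapped over most of their range, and KO mice had 97.6% of the WT level.

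**Figure D3:**
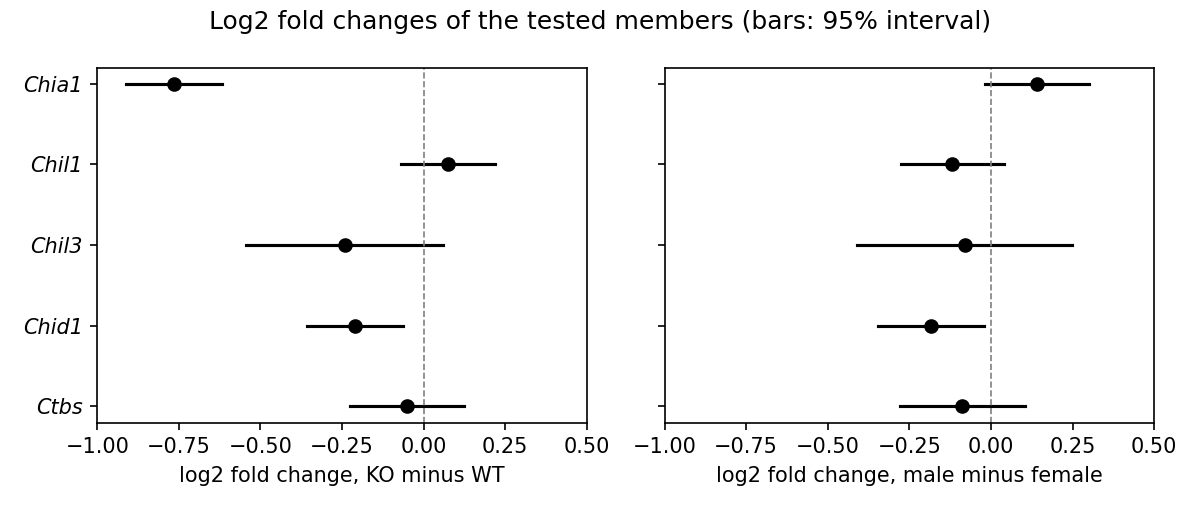
Log2 fold changes of the 5 tested members with 95% intervals, KO minus WT on the left and male minus female on the right, on the same scale. On the left the Chia1 interval, -0.91 to -0.62, lies apart from those of the other members; on the right all points lie between -0.19 and 0.14.

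Sex was not used to choose these genes and could be tested. Of all genes tested, 0.583% were called between 3 males and 7 females, and of the 5 members tested 0 were called by edgeR's quasi-likelihood test. The number with an unadjusted p under 0.05 was 1, Chid1, against 15.1% of all genes tested. Without KO replicate 5, 0.514% of all genes tested were called and again 0 of the 5 members. Chia1 differed by 0.14 on the log2 scale, male minus female, with an SE of 0.07 (edgeR adjusted p 0.391) and 0.15 without KO replicate 5 (edgeR adjusted p 0.389). Chil1 had -0.12 (SE 0.07, edgeR adjusted p 0.481), and -0.13 without that mouse (edgeR adjusted p 0.475). Chil3 had -0.08 (SE 0.15, edgeR adjusted p 0.846), and -0.13 without it (edgeR adjusted p 0.65). For Chid1 the value was -0.18 (SE 0.08, edgeR adjusted p 0.274) and for Ctbs -0.09 (SE 0.09, edgeR adjusted p 0.69), and without KO replicate 5 they were -0.18 and -0.08 and not called either (edgeR adjusted p 0.318 and 0.744). A sex difference within 1 genotype was not tested.

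Chia1, Chil3 and Chil4 lie together on chromosome 3 with other family genes, so the surroundings of Chia1 were examined. Within 500 kb of its start lay 37 other genes, of which 22 were tested. By edgeR's quasi-likelihood test 0 of the 22 were called and 1 had an unadjusted p under 0.05, against 17% of all genes. DESeq2 called that gene, Inka2 (log2 fold change 0.30, SE 0.08, higher in KO, named here after its value was seen), and limma-voom called 0. The median log2 fold change of the 22 genes was -0.06. The nearest tested gene was Chil3, starting 54335 bases away on the opposite strand. Next came the pseudogene Gm4540 at -0.43 (SE 0.69), Pifo, a gene of cilium formation, at -0.13 (SE 0.10), and the oviductin gene Ovgp1, itself of family 18, at -0.26 (SE 0.21) on the log2 scale, none of them called. The other family genes in this window, Chil5 and Chil6, were not tested, with 58 and 8 counts summed over the 10 mice, and the list's Chia2 and Chil7 had no matching symbol.

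**Figure D4:**
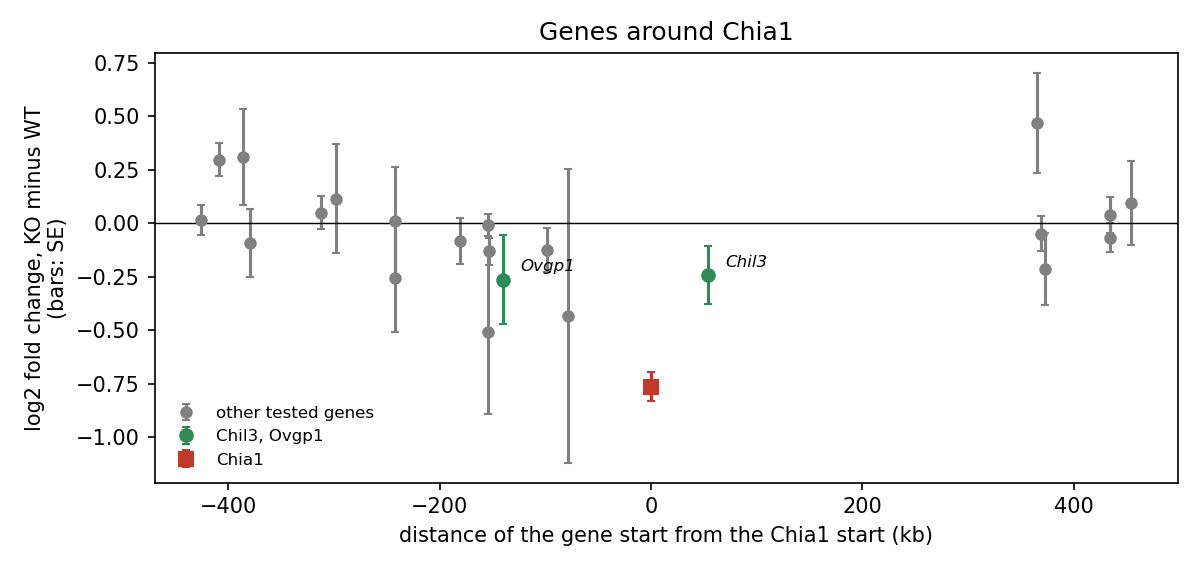
Log2 fold change, KO minus WT, with SE, of Chia1 (red square) and the 22 tested genes whose start lies within 500 kb, by distance from the Chia1 start in kb. Chia1, at -0.76, lies below every neighbour's point, and the family genes Chil3 and Ovgp1 (green) lie at -0.24 and -0.26.

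Whether the relatives moved with Chia1 from mouse to mouse was described from the log2 CPM of each mouse less the mean of its genotype, over 10 mice that share the same scaling. Against Chia1, Pearson's r was 0.06 for Chil1, -0.05 for Chil3, -0.15 for Chid1 and -0.02 for Ctbs (Spearman's rho 0.21, 0.01, 0.05 and -0.15). Leaving out the 2 mice farthest from the median of Chia1, KO replicates 1 and 2, gave 0.12, -0.49, 0.61 and -0.17, so the values for Chil3 and Chid1 rested on those mice. Within the genotypes taken singly, 5 mice each, Chid1 had r -0.83 in KO and 0.71 in WT mice and Ctbs 0.33 and -0.49, so their pooled values near 0 joined opposite directions. For Chil1 these were -0.17 and 0.39, and for Chil3 0.04 and -0.32. Among 12876 genes with a mean of at least 5 CPM, ordered from the highest r with Chia1, these members stood between rank 5910 and rank 8538. Chil1 and Chil3 varied together more than any other pair of tested members (r 0.66), both with their highest KO value in KO replicate 4. No r without that mouse is given for this pair. No p is given, since covariation with Chia1 was part of how the set was framed.

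**Figure D5:**
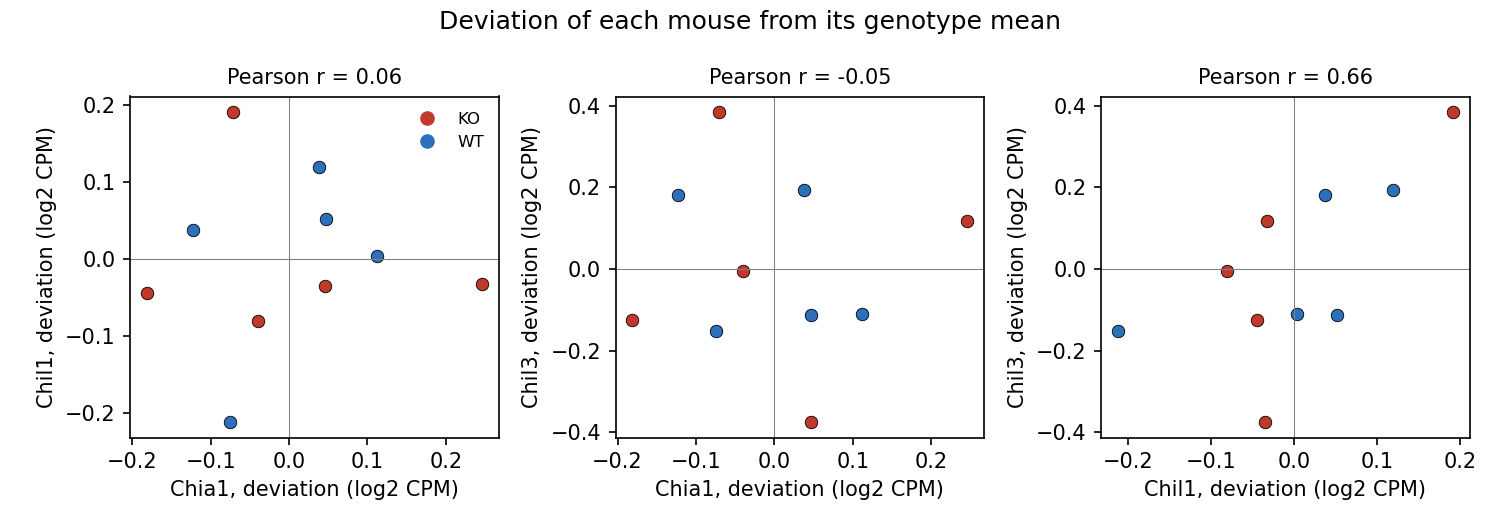
Deviation of each mouse from its genotype mean in log2 CPM, for Chia1 against Chil1, Chia1 against Chil3 and Chil1 against Chil3 (KO red, WT blue). The first and second panels have r 0.06 and -0.05, and the third r 0.66. In the third, KO replicate 4 has the highest deviation of both Chil1 (0.191) and Chil3 (0.385). Some mice, such as KO replicate 1 and WT replicate 1, have deviations of opposite sign.

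By the same measure the 5 genes most like Chia1 were Ppp1r15a (r 0.93), a phosphatase subunit gene of the stress response, Hspa2 (r 0.925), a chaperone gene, Fhdc1 (r 0.923), Baiap2l1 (r 0.91) and Cacfd1 (r 0.886). None of these was called between the genotypes, with log2 fold changes from -0.01 to 0.07. They are the highest of 12876 genes over 10 mice, where some r is high without any link, so nothing is read from them. Their r without KO replicates 1 and 2 is not given. Over the 10 mice as they are, a measure that also holds the difference between the genotypes, the 5 most alike were Naxd (r 0.967), Vapa (r 0.936), Bpifb1 (r 0.922), Ctsh (r 0.92) and Klhdc2 (r 0.907). Ctsh, a lysosomal protease gene that serves surfactant protein processing in alveolar type 2 cells, measured 280.2 ± 20.4 CPM in WT and 234 ± 13.6 CPM in KO mice (SD, n = 5). Its log2 fold change of -0.24 (SE 0.06) was not called (edgeR adjusted p 0.125).

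Since Chia1 and Chil1 are known from alveolar type 2 cells, markers of those cells were measured beside them. All 12 listed markers were detected, none at 0 in every mouse, and 0 of 12 were called by edgeR's quasi-likelihood test. At an unadjusted p under 0.05 stood 6, all lower in KO, DESeq2 called 2, both lower, and limma-voom called 0. Over all genes tested, 8.04% were lower at that unadjusted threshold and DESeq2 called 1.92%, in both directions. Those 2 were Sftpa1, with an edgeR log2 fold change of -0.23 (SE 0.07), and Napsa, a protease gene of these cells, with -0.25 (SE 0.05). The median log2 fold change of the list was -0.12, with 9 genes below 0 and 3 above it. Those above were Abca3 at 0.06 (SE 0.06), Lamp3 at 0.01 (SE 0.06) and Hc at 0.07 (SE 0.07). Sftpc, the surfactant protein gene that defines these cells, measured 15510 ± 1520 CPM in WT and 13790 ± 1020 CPM in KO mice (SD, n = 5), a difference of -0.18 on the log2 scale with an SE of 0.08 (edgeR adjusted p 0.283). The summed CPM of the 12 genes ran from 27510 to 32170 in WT and from 26480 to 30080 in KO mice. Most of it came from the surfactant protein genes Sftpc, Sftpb and Sftpa1, so it mostly follows those. In KO mice the sum averaged 90.3% of that in WT mice (exact permutation p 0.03968, 0.1905 adjusted over 8 lists). Chia1 per 1000 CPM of these markers ran from 2.47 to 2.79 in WT and from 1.48 to 2.08 in KO mice, a KO mean of 64.3% of the WT mean. Chil1 per 1000 CPM of them went the other way, from 23.2 to 25.9 in WT and from 26.7 to 30 in KO mice (118%). Since the marker sum averaged lower in KO mice, dividing by it raises the KO level of any gene relative to WT.

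Markers of 7 other cell groups were summed in the same way, and all listed genes had counts. Club cell markers, led by Scgb1a1, ran from 29350 to 37370 CPM in WT and from 28300 to 31860 CPM in KO mice (89.9% of the WT mean, exact permutation p 0.04762, adjusted 0.1905). Alveolar macrophage markers, beside which Chil3 is read, ran from 219.5 to 264.5 CPM in WT and from 205.1 to 250.4 CPM in KO mice (94.1%, exact permutation p 0.2937, adjusted 0.5874). Relative to WT, the KO mean stood at 97.2% for neutrophil markers, cells that are also known to make Chil3, and 99% for interstitial macrophage and monocyte markers. It stood at 95.1% for alveolar type 1, 97.2% for ciliated, and 109% for goblet and gland cell markers, with adjusted exact permutation p-values from 0.3387 to 0.7937. The ciliated sum averaged 1782 CPM in WT and 1731 CPM in KO mice, of which the gene Sec14l3 alone gave 1453 and 1379 CPM. That sum therefore mostly follows 1 gene. Of the 8 ciliated markers 3 had a log2 fold change above 0, Foxj1 and Dnah5 among them, and 5 below. Within genotypes the deviations of Chia1 went with those of the ciliated sum (r 0.76, rho 0.70) and the alveolar type 1 sum (r 0.66, rho 0.58) and less with the type 2 sum (r 0.13, rho 0.32), over 10 mice that share the same scaling. Without KO replicates 1 and 2 these were r 0.62, 0.5 and 0.36. The alveolar macrophage sum went from r 0.43 to -0.14 and the neutrophil sum from -0.01 to -0.75 when those mice were left out, and the interstitial macrophage and monocyte sum from 0.01 to 0.47. The club and the goblet and gland sums had r 0.21 and 0.08, and 0.34 and 0.13 without those mice. Their part in the level of Chia1 was not tested.

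The genes around chitin and chi-lectin signalling were read from lists of known genes in the comparison of KO with WT. Of the chitin-sensing genes 4 of 5 were tested and 0 were called by edgeR, with 2 at an unadjusted p under 0.05, Lysmd3 higher and Lgals3 lower, and 0 by DESeq2 or limma-voom. Clec7a, the receptor dectin-1, measured 37.5 ± 5.26 CPM in WT and 37.1 ± 4.69 CPM in KO mice (SD, n = 5 each). Tlr2, a receptor reported to respond to chitin fragments, measured 26.2 ± 2.46 and 27.8 ± 3.73 CPM, and the lectin gene Lgals3 129.9 ± 14.5 and 113 ± 3.61 CPM (SD, n = 5 each). Of the 4 genes listed as Chil1 receptors 3 were tested and 0 were called by edgeR, DESeq2 or limma-voom, with 2 at an unadjusted edgeR p under 0.05. Those were Tmem219, a partner in Chil1 signalling, with a log2 fold change of -0.14 (SE 0.07), and Cd44 with 0.18 (SE 0.06). Ptgdr2 measured 1.17 ± 0.215 CPM in WT and 1.28 ± 0.106 CPM in KO mice (SD, n = 5 each), and Il13ra2 was not tested.

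The type 2 response, which is known to raise Chia1, Chil3 and Chil4, was represented by 28 genes, of which 22 were tested. By edgeR 0 were called, and 2 had an unadjusted p under 0.05, Clca1 and Postn, both higher in KO. Clca1 was highest in KO replicate 5, at 24.2 CPM, and lay between 0.883 and 6.03 CPM in KO replicates 1 to 4. DESeq2 called 1, Postn, and limma-voom 0. The median log2 fold change was -0.04, with 10 genes above and 12 below 0. Il4ra, the shared receptor chain, measured 129.8 ± 15.7 CPM in WT and 130.1 ± 10.4 CPM in KO mice, and the transcription factor gene Stat6 166 ± 5.86 and 165 ± 8.23 CPM (SD, n = 5 each). Postn, a matrix protein gene, measured 259.7 ± 21.9 and 305 ± 18.5 CPM (SD, n = 5), higher by 0.24 on the log2 scale with an SE of 0.07 (edgeR adjusted p 0.144). The cytokine genes Il5, Il13 and Il25 did not pass the filter.

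The list for lysosomal glycan breakdown, read beside Ctbs, gave 11 tested genes. Of these edgeR, DESeq2 and limma-voom called 0, and 1 had an unadjusted edgeR p under 0.05. That was Hexa, a subunit of hexosaminidase, at 113 ± 4.36 CPM in WT and 104 ± 3.41 CPM in KO mice (SD, n = 5), a difference of -0.10 with an SE of 0.05 on the log2 scale (edgeR adjusted p 0.285). Ctsa and Man2b1 had log2 fold changes of 0.03 (SE 0.05) and 0.06 (SE 0.06). The median of the list, -0.005, lay near that of all genes tested, -0.003, as did the log2 fold change of Ctbs within its error.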

How the data were processed

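RNA from the right middle lung lobe of 5 KO and 5 WT mice was measured. Per the labels' protocols, stranded mRNA libraries were read as single 50-base reads. The authors deposited 1 table of estimated counts per gene, not scaled between samples. The submitters' processing notes list STAR 2.6.0 and Salmon 0.9.1 and the builds mm10 and GRCm38, without saying which step each served; annotation, filters and strand setting are not given in the sources used here. Within 0.01, all but 30.1% of the non-zero deposited values were whole. Symbols, coordinates and transcripts came from GENCODE M21 (GRCm38), which matched 47281 of 47333 identifiers.

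Counts were rounded. Genes were kept by filterByExpr (minimum count 10, minimum total 15) and fitted with edgeR 4.0.16 (quasi-likelihood, robust, TMM) on sex and genotype in R 4.3.3, with Benjamini-Hochberg adjustment over 18024 genes and calls at an adjusted p under 0.05. SEs are the log2 fold change over the square root of F. Log2 CPM used a prior count of 2. Marker sums were compared by two-sided exact permutation over 252 splits (smallest possible p 0.007937). Scripts were tested on simulated counts.

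The members and lists were chosen with earlier results of these data known. Named beside the members were Bpifb1, the 3 most abundant genes of a list or any called, the 4 nearest tested neighbours and the 5 genes most like Chia1 by each measure; other names, such as those at an unadjusted p under 0.05 or called by DESeq2, were chosen after their values were seen. Alternatives were DESeq2 1.42.0 size factors and Wald test, limma-voom 3.58.1, other filters, no robust fit, no sex or no genotype term, females alone, and leaving out each mouse. Replicate numbers follow sample order and pair no mice.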

Additional observations from a re-analysis of the deposited data

Results flagged for a closer look

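Dixon's test was applied to the 7 members and the 8 marker sums within each genotype, 30 sets in all, and 4 had a mouse standing apart, where about 1.5 would by chance.

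KO replicate 4 had 902.8 CPM of Chil1, where the remaining KO animals had between 747.8 and 773.6 CPM. Chid1 in KO replicate 1, the 1 KO male, stood at 26.77 CPM, where the remaining animals had between 31.75 and 32.72 CPM. The club cell marker sum in KO replicate 4 was 31860 CPM against 28300 to 28810 CPM. The goblet and gland cell marker sum in KO replicate 5 was 353.3 CPM against 143.5 to 201.2 CPM.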

How the results depend on the processing

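Chia1 was called in all 18 alternatives, with a log2 fold change from -0.84 to -0.73, and was the 1 member called in each. Since this comparison chose Chia1, these refits of the same counts describe how its value depends on the processing and add no support. The log2 fold changes of Chil1, Chil3, Chid1 and Ctbs kept their sign in all 18 and none was called. The count of 4 genes over the whole table became 50 with no filter on low counts, 346 by the DESeq2 Wald test, 2 by limma-voom, and 2 to 18 when 1 mouse was left out: 2 without KO replicate 2, 4 or 5 or WT replicate 1, 18 without WT replicate 3, and 3 to 5 without each of the others. By DESeq2 the listed genes called went from 0 to 4 (Foxj1, Napsa, Postn and Sftpa1) and the neighbours of Chia1 from 0 to 1. The cause was not tested. The median r of the members with Chia1, -0.04, ran from -0.14 to 0.09 without single mice; with means by genotype and sex subtracted, the lone KO male was dropped. Depth sets the limit for Chit1 and Chil4.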

Other observations

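Chil4 reached 21 counts in KO replicate 5, and Clca1 and Muc5ac, picked from the listed genes after this was seen, were also high there. Clca1, a gene of mucus-producing cells, measured 24.2 CPM in that mouse and 0.883 to 6.03 CPM in the other KO mice, against 0.321 to 1.69 CPM in WT mice. Muc5ac measured 4.5 CPM there and 1.21 to 2.69 CPM in the other 9 mice. The goblet and gland cell marker sum was 353.3 CPM in that mouse, against 157.8 to 236.4 CPM in WT mice. Clca1 and Muc5ac were a small part of that sum. Muc5b, Scgb3a1 and Ltf reached 128, 159 and 21.9 CPM in KO mice, above the WT maxima of 72.7, 139.5 and 19.6 CPM. Their values by mouse are not given here. Other listed genes of mucous and type 2 responses went both ways. For Arg1, Ccl8, Ccl11, Ccl17, Ccl22, Ccl24 and Tff2 no KO mouse exceeded the highest WT mouse. For Fcgbp and Spdef the highest KO mouse did. Retnla, which is induced with Chil3 in macrophages, was highest not in KO replicate 5 but in KO replicate 4. It measured 52.9 CPM there, against 22.4 to 40.1 CPM in the other 9 mice. KO replicate 4 also had the highest Chil1 and Chil3 of the KO mice.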
